A study of Mus musculus with 8 samples.

Results

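The 49 genes described here encode the enzymes and transporters of glycolysis, the pentose phosphate pathway and the tricarboxylic acid (TCA) cycle, named gene by gene and matched by symbol through the Ensembl gene IDs of the deposited tables. All 49 were found, of 39179 gene IDs in each library. They comprise 4 transporters, 11 genes of upper glycolysis, 6 of lower glycolysis, 2 lactate dehydrogenase subunits, 7 genes of the pentose phosphate pathway, 6 of the pyruvate dehydrogenase step and 13 of the TCA cycle. The study set common lymphoid progenitors (CLP), the bone marrow cells that can give rise to B, T and natural killer cells, in a long-term culture against the same progenitors taken straight from the animal. The cultured cells, called cCLP, grew on OP9, a mouse bone marrow stromal line, with Flt3 ligand and little IL-7, and were sorted after 2 months. The ex vivo CLP were sorted from bone marrow without culture. All cells came from C57BL/6 mice, and the gate for both kinds was lineage-negative, IL-7 receptor-positive, Flk2-positive (Flk2 is another name for Flt3), CD27-positive and Ly6d-negative. There were 4 libraries of each kind. The labels name no genetic modification or other treatment, and do not say which animals or cultures the replicates came from, so the p-values speak only of the spread among these 8 libraries, which may be technical.

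Glycolysis splits glucose into pyruvate in the cytosol and yields ATP and NADH. The pentose phosphate pathway branches off glucose 6-phosphate and yields NADPH and ribose 5-phosphate, the sugar of nucleotides. Pyruvate is either reduced to lactate by lactate dehydrogenase, which regenerates NAD+, or enters mitochondria, where pyruvate dehydrogenase turns it into acetyl-CoA for the TCA cycle. Many of the enzymes come in isozymes from separate genes, which differ in kinetics, in the subunits they join and in the tissues that use them, and dividing cells, lymphoid ones included, are known to draw on glycolysis strongly. Many glycolytic genes are also known targets of the hypoxia factor HIF1 and of MYC.

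Values are given as scaled values, that is, the deposited whole number of a gene divided by a library factor, and log2 fold changes take cCLP over ex vivo CLP on the scale of log2(scaled value + 1), which understates the change of genes with low values. The scale of the deposited numbers is not named in the sources used here and the numbers vary less between some libraries than counts of reads can: the dispersion index over genes ran from 0.189 to 3.206 over the 28 pairs of libraries and was below 1 in 12. The depth is therefore unknown, a 0 is given as listed at 0, and levels are not compared between genes. The 8 summed values ran from 378594 to 704305. The 49 genes took 0.855%, 0.799%, 0.778% and 0.745% of the sum in cCLP 1 to 4, against 0.773%, 0.769%, 0.765% and 0.826% in ex vivo CLP 1 to 4.

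The library labelled cCLP replicate 1 and the library labelled ex vivo CLP replicate 2 each lay with the other group. The rank correlation (Spearman's rho over genes) of the library labelled cCLP 1 was 0.924 to 0.925 with cCLP 2 to 4, against 0.97 to 0.974 with ex vivo CLP 1, 3 and 4. That of the library labelled ex vivo CLP 2 was 0.973 to 0.979 with cCLP 2 to 4, against 0.913 to 0.927 with ex vivo CLP 1, 3 and 4. Most of the 49 genes went the same way, though no such count was made over all genes tested. Among the 42 with values high enough to test, cCLP 1 was nearer to the mean of ex vivo CLP 1, 3 and 4 for 36. For 30 of them, ex vivo CLP 2 was nearer to the mean of cCLP 2 to 4. Counts, called genes and isozymes are therefore given with all 8 libraries as labelled and without these 2 libraries (3 cCLP against 3 ex vivo CLP), and the remaining fold changes over the 6 libraries alone. No library was moved to another group, and the p-values of the comparison of 6 libraries hold only given that choice.

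Of the genes of the gate, Flt3 stood at 216 to 280 in the 4 cCLP libraries, against 209 to 262 in the 4 ex vivo CLP libraries, and Cd27 at 71.5 to 99.7, against 61.4 to 102.4. Il7r, also selected for by the gate, stood at 26.6, 224, 202 and 212 in cCLP 1 to 4, against 73.5, 212, 17.8 and 17.4 in ex vivo CLP 1 to 4, and rose over the 6 libraries (log2 fold change 2.85 ± 0.50 SE, adjusted p = 0.00313 by limma; with all 8 libraries 1.40, adjusted p = 0.495). Ly6d, which the gate excludes, was listed at 20.9, 1.05, 0.989 and 0.830 in cCLP 1 to 4, against 33.7, 0, 35.6 and 29.8 in ex vivo CLP 1 to 4. Over the 6 libraries it fell (log2 fold change -4.12 ± 0.14 SE, adjusted p = 9.32e-07 by limma). With all 8 libraries the log2 fold change was -1.98 (adjusted p = 0.493 by limma). Among the 6 libraries Ly6d reached 10, the scaled value that the test needed, in ex vivo CLP alone, which favoured a fall. Other cell types were followed by fixed marker lists. All 12 neutrophil and monocyte markers fell in cCLP in the comparison of 6 libraries, where 22.2% of all genes tested were called lower. Their summed scaled value was 265 to 292 in cCLP 2 to 4, against 1402 to 3272 in ex vivo CLP 1, 3 and 4. Mpo made up most of the sums in cCLP 2 to 4, at 258, 281 and 281, against 364, 946 and 984 in ex vivo CLP 1, 3 and 4. Of the 12, 9 were listed at 0 in all of cCLP 2 to 4. All of the 12 but Mpo reached 10 in ex vivo CLP alone, so that a fall was favoured. Of the 18 cell cycle genes 12 fell and 0 rose (66.7%, where 22.2% of all genes tested were called lower), with sums of 1504 to 1685 in cCLP 2 to 4, against 2257 to 2489 in ex vivo CLP 1, 3 and 4. The cell cycle sum was 2275 in cCLP 1 and 1629 in ex vivo CLP 2. Of the 7 dendritic cell markers 6 fell, all but Flt3, and each of the 6 reached 10 in ex vivo CLP alone. Their log2 fold changes over the 6 libraries ran from -4.96 (Cd74) to -2.47 (Itgax). The sums over the list were 283 to 295 in cCLP 2 to 4, against 541 to 559.7 in ex vivo CLP 1, 3 and 4. Flt3 made up most of the sums in cCLP 2 to 4, at 274 to 280. Of the 7 lymphoid progenitor genes, 3 rose (Rag1, Rag2 and Il7r) and 2 fell (Dntt and Cd34). Rag1, which reached 10 in cCLP alone, stood at 290, 278 and 324 in cCLP 2 to 4. In ex vivo CLP 1, 3 and 4 it stood at 8.43, 1.27 and 1.45. Dntt stood at 86.3, 263 and 110 in cCLP 2 to 4, against 2258, 1103 and 875. The sums over the list mix these opposite changes. They were 1080.4 to 1217 in cCLP 2 to 4, against 1764 to 3258 in ex vivo CLP 1, 3 and 4. Both B lineage markers that could be tested, Cd79b and Blnk, fell, and both reached 10 in ex vivo CLP alone. Sums over the list were 17.9 to 28.2 in cCLP 2 to 4. In ex vivo CLP 1, 3 and 4 they were 45.7 to 66.3. Untested markers of the list differed in direction. Cd79a stood at 7.36, 6.92 and 13.3 in cCLP 2 to 4. In ex vivo CLP 1, 3 and 4 it stood at 1.20, 1.27 and 0.726. Ebf1 and Pax5 were also higher in cCLP 2 to 4, and Vpreb1 was lower. Of 7 macrophage markers 2 could be tested, 1 rising and 1 falling, with sums of 22.4 to 32.6 in cCLP 2 to 4, against 22.9 to 35.6 in ex vivo CLP 1, 3 and 4. Mrc1 rose, at 21.0, 25.7 and 19.1 in cCLP 2 to 4, against 0 in each of ex vivo CLP 1, 3 and 4. Cd68 fell, at 4.21, 6.92 and 3.32, against 20.5, 30.5 and 25.4. Mrc1 reached 10 in cCLP alone and Cd68 in ex vivo CLP alone. T lineage markers summed to 14.7 to 18.8 in cCLP 2 to 4, against 21.6 to 41.0 in ex vivo CLP 1, 3 and 4, and the 1 that could be tested was not called. No erythroid or megakaryocyte marker could be tested. Their sums in cCLP 2 to 4 were 4.15 to 7.91 and 4.95 to 7.47, against 10.8 to 54.7 and 4.82 to 11.4 in ex vivo CLP 1, 3 and 4. The 12 markers of OP9 stroma summed to 9.89 to 17.9 in cCLP 2 to 4, against 10.2 to 15.7 in ex vivo CLP 1, 3 and 4, and 8 were listed at 0 in all 8 libraries. None could be tested, and the similar sums hold opposite values. Fn1 stood at 11.6, 6.92 and 5.81 in cCLP 2 to 4, against 0, 0 and 0.726 in ex vivo CLP 1, 3 and 4. Pdgfrb stood at 6.31, 2.97 and 5.81, against 13.3, 6.36 and 7.99. Vcam1 and Fstl1 were listed at 0 in cCLP 2 to 4 and above 0 in ex vivo CLP 1, 3 and 4. With all 8 libraries limma called 0 genes of these lists. The part of these marker lists in the results on the 49 genes was not tested.

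The start regions of 5 genes that the results turn on are shown for context: Slc16a1, the gene with the largest rise, Hk3 and Ldhb, listed at or near 0 in cCLP 2 to 4, Ldha, the other lactate dehydrogenase subunit, and Pgk1, a well-known HIF1 target. Each sequence is the 250 bases before the annotated start, 5′ to 3′ on the gene's own strand, from RefSeq on build GRCm38.p6. Capitals mark ACGTG, the core of the element that HIF1 binds, in either orientation (CACGT on the other strand); CACGTG, the E-box that MYC binds, holds it in both orientations. The motifs were chosen after the values had been seen. For Ldha the first of 2 annotated start regions is shown.
Slc16a1, chr3:104638414-104638663, plus strand: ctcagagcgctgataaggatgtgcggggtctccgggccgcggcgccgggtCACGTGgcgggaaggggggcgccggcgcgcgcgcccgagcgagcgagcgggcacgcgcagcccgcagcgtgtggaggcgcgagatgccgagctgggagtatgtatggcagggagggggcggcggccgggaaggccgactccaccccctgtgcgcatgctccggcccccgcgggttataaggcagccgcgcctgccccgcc
Hk3, chr13:55021386-55021635, minus strand: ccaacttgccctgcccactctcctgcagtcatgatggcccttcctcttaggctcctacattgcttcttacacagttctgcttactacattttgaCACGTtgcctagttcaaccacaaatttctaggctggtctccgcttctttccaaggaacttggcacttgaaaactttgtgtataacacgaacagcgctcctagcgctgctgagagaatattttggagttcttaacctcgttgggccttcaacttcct
Ldha, chr7:46845554-46845803, plus strand: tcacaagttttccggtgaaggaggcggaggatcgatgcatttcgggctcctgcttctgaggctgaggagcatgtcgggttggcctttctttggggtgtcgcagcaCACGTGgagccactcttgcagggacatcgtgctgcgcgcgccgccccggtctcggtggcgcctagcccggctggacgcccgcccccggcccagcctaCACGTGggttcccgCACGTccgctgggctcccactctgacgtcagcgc
Ldhb, chr6:142507958-142508207, minus strand: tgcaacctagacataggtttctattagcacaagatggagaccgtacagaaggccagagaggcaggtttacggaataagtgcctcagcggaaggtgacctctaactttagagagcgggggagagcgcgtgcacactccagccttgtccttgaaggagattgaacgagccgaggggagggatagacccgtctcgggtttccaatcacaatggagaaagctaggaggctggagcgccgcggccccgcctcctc
Pgk1, chrX:106186850-106187099, plus strand: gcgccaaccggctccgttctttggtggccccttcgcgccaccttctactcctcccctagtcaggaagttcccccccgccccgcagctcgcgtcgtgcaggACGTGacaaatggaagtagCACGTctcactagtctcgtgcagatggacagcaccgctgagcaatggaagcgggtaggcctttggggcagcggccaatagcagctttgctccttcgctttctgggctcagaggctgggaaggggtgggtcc
The region of Slc16a1 holds 1 CACGTG, that of Ldha 2 CACGTG and 1 further CACGT, that of Pgk1 ACGTG once in each orientation and that of Hk3 1 CACGT. That of Ldhb holds none of these letters. Of the 49 genes, 47 had start regions in the table, 68 in all, and 26 of the 68 (38.2%) held ACGTG in either orientation, against 16.6% of all 32851 start regions of the same length. CACGTG was found in 8 of the 68 (11.8%), against 6.02% of all. Of the 18 genes with ACGTG, 3 were among the 5 that rose, 4 among the 8 that fell, 7 among 27 with no call and 4 among the 7 not tested, in the comparison of 6 libraries. A match describes these letters and does not show that a factor binds there.

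With all 8 libraries as labelled, none of the 49 genes passed the test. The test needed a scaled value of 10 or more in at least as many libraries as 1 group holds, which 42 of the 49 reached. Limma with Benjamini-Hochberg adjustment over all 6493 genes tested called 0 of the 42 at an adjusted p below 0.05, where the background over all genes was 0.0%. At an unadjusted p below 0.05 there were 5 of the 42, where the background was 7.21% (468 genes). Pfkm alone had groups that did not overlap, where 3.11% of all genes tested had such groups. The median log2 fold change of the 42 was 0.00, and the median of its absolute value was 0.13, against 0.19 over all genes tested. The 95% intervals of 35 of the 42 stayed within a 2-fold change in either direction.

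The 5 genes with the smallest p in that comparison were Pfkm, Pgd, Eno1, Aldoa and Taldo1, and each had an adjusted p of 0.488 by limma. Pfkm averaged 26.2 ± 3.54 in cCLP and 18.2 ± 2.78 in ex vivo CLP (SD, n = 4 each), a log2 fold change of 0.51 ± 0.14 SE. Pgd averaged 17.7 ± 2.73 in cCLP and 12.6 ± 2.81 in ex vivo CLP (SD, n = 4 each), a log2 fold change of 0.47 ± 0.18 SE. Eno1 averaged 67.2 ± 11.3 in cCLP and 50.2 ± 9.70 in ex vivo CLP (SD, n = 4 each), a log2 fold change of 0.42 ± 0.16 SE. These 3 and Aldoa had the higher mean in cCLP, and Taldo1 had the lower. Aldoa averaged 191 ± 27.3 in cCLP and 146 ± 23.3 in ex vivo CLP (SD, n = 4 each), a log2 fold change of 0.39 ± 0.15 SE. Taldo1 averaged 129 ± 25.7 in cCLP and 178 ± 39.5 in ex vivo CLP (SD, n = 4 each), a log2 fold change of -0.46 ± 0.19 SE. Unadjusted p-values by limma over all 8 libraries were 0.00741 for Pfkm, 0.0285 for Pgd, 0.0328 for Eno1, 0.0361 for Aldoa and 0.0424 for Taldo1.

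Without the libraries labelled cCLP 1 and ex vivo CLP 2, 5 genes rose in cCLP and 8 fell. Slc16a1, Pfkm, Aldoa, Pgd and Suclg1 rose, and Hk1, Hk3, Pgk1, Ldhb, Rpia, Taldo1, Pdk3 and Ogdh fell. In this comparison limma tested 42 of the 49 genes among 6581 and called 31.0% of them at an adjusted p below 0.05, where the background was 42.6% of all genes tested (20.4% higher and 22.2% lower). Slc16a1, Hk1, Hk3, Ldhb, Rpia and Pdk3 changed by at least 2-fold, which 12.3% of all genes tested did, and 16 of the 42 had groups that did not overlap, against 55.2% of all genes tested. The median log2 fold change of the 42 was 0.04 and the median of its absolute value 0.27, against 0.31 over all genes tested. With upper quartile factors in place of trimmed means the split was 9 higher and 6 lower. Leaving out cCLP 2 or cCLP 3 left 3 higher in either case. Of the 13 called genes, Hk1, Hk3, Ldhb and Rpia passed the filter on low values through ex vivo CLP alone, which had to favour a fall. In bulk samples such as these, fewer cells of a type and less RNA per cell cannot be told apart.

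**Figure D1:**
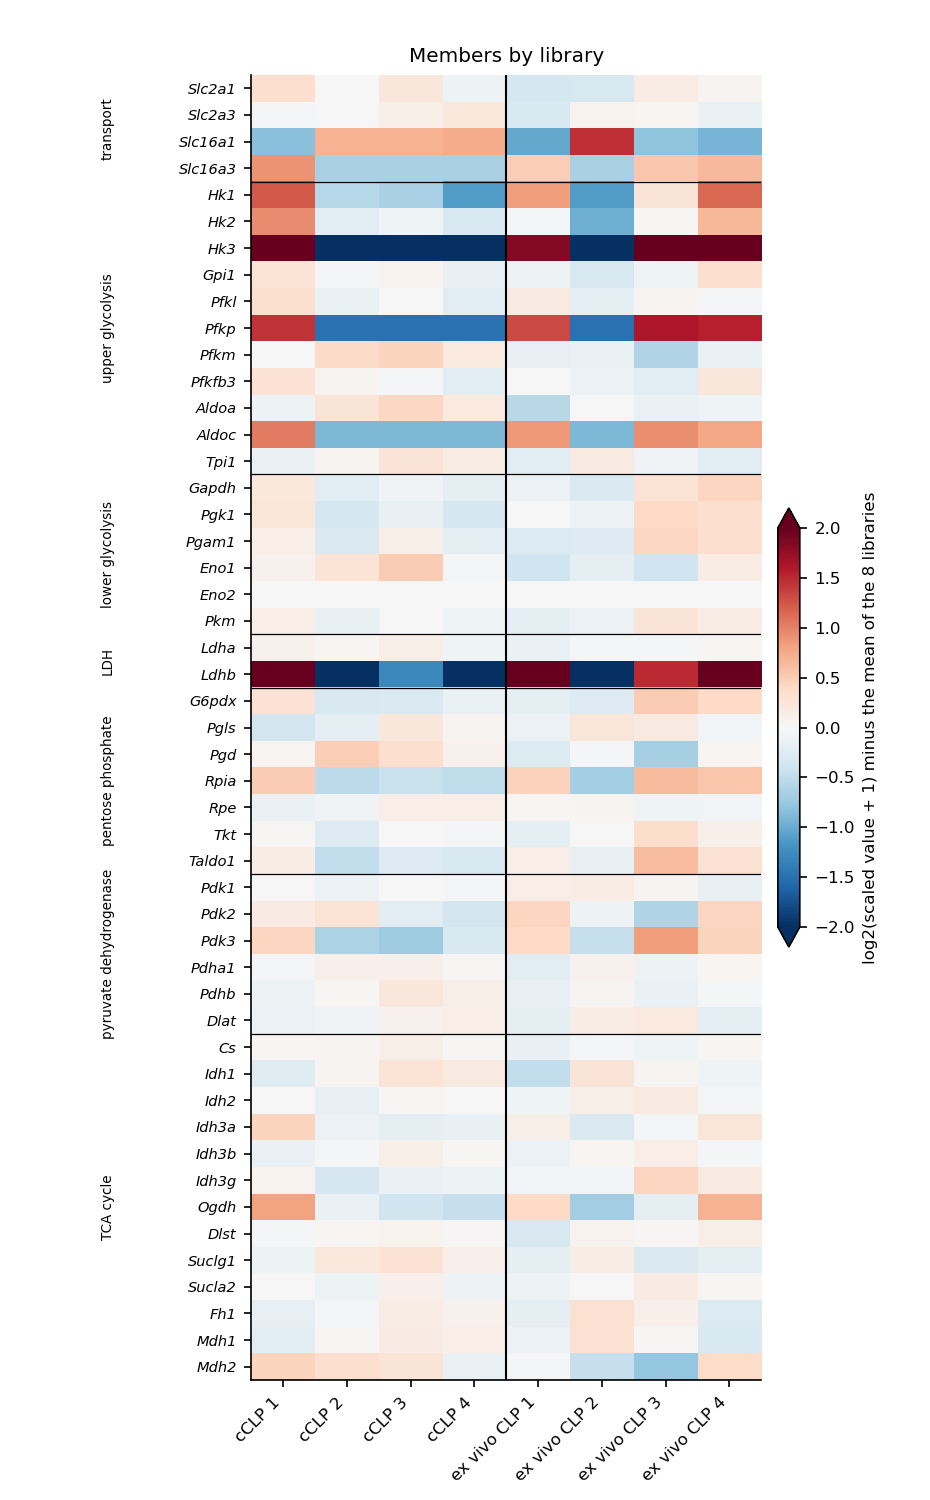
Heat map of the 49 genes by role (rows) in the 4 cCLP and the 4 ex vivo CLP libraries (columns), coloured by log2(scaled value + 1) minus the gene's mean over the 8 libraries, with a capped colour scale. The columns of cCLP 1 and of ex vivo CLP 2 look like those of the other group for Slc16a1, Hk1, Hk3 and Ldhb, and Eno2 is listed at 0 throughout.

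**Figure D2:**
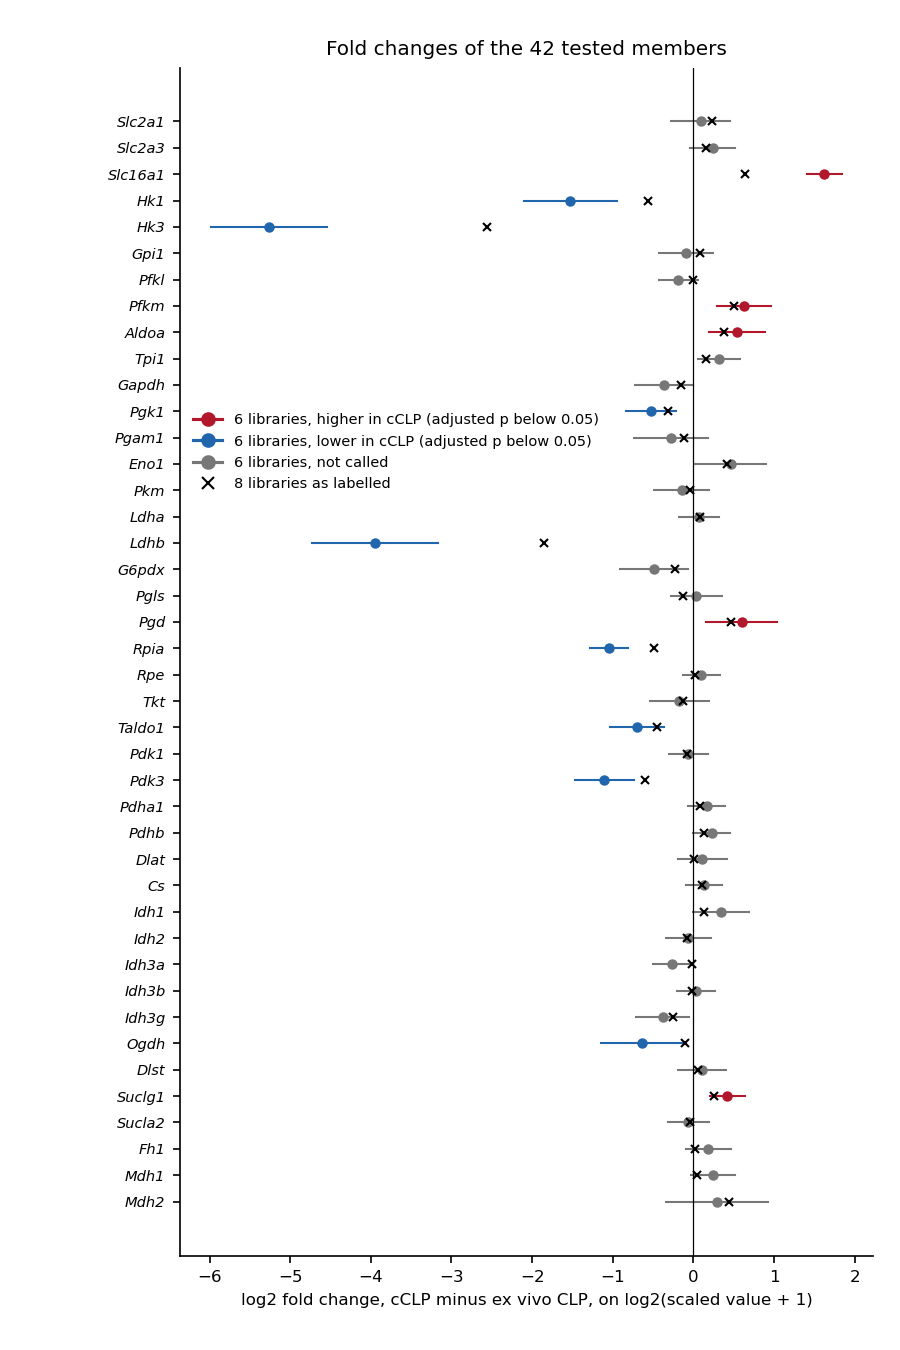
Log2 fold change (cCLP minus ex vivo CLP, log2 of scaled value + 1) of the 42 tested genes, with points and 95% intervals for the 6 libraries, coloured by call, and crosses for all 8 libraries. The 5 genes called higher and the 8 called lower stand away from 0 in the 6 libraries, and the median absolute change is 0.27 for the points and 0.13 for the crosses; the positions of Hk3 and Ldhb depend on the added 1.

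The monocarboxylate transporter Slc16a1 (MCT1), which carries lactate and pyruvate across the cell membrane, showed the largest rise of the 49 genes. Slc16a1 (chromosome 3, 104638668 to 104658462 on GRCm38) stood at 24.7, 73.6, 73.2 and 75.5 in cCLP 1 to 4, against 21.7, 125, 25.4 and 23.2 in ex vivo CLP 1 to 4. The values of cCLP 2 to 4 lay close together and above ex vivo CLP 1, 3 and 4 without overlap, cCLP 1 lay among the low values, and ex vivo CLP 2 held the highest value of all. Slc16a1 averaged 74.1 ± 1.22 in cCLP and 23.5 ± 1.89 in ex vivo CLP (SD, n = 3 each). Slc16a1 had a log2 fold change of 1.62 ± 0.09 SE (95% interval 1.41 to 1.84, 3.08-fold, adjusted p = 7.73e-06 by limma; with all 8 libraries 0.64, adjusted p = 0.569). Slc16a3 (MCT4), the exporter favoured in strongly glycolytic cells, was too low to test, at 1.90, 0, 0 and 0 in cCLP 1 to 4, against 1.20, 0, 1.27 and 1.45 in ex vivo CLP 1 to 4. The values of both glucose transporters overlapped between the groups. Slc2a1 (GLUT1), the widespread carrier, had 16.1, 12.6, 14.8 and 11.6 in cCLP 1 to 4, against 9.64, 9.87, 14.0 and 13.1 in ex vivo CLP 1 to 4. Slc2a1 had a log2 fold change over the 6 libraries of 0.09 ± 0.16 SE (interval -0.27 to 0.46, adjusted p = 0.665 by limma; with all 8 libraries 0.23, adjusted p = 0.493), and its sign turned without ex vivo CLP 1, at -0.06. Slc2a3 (GLUT3), a carrier with high affinity for glucose, had 13.3, 13.7, 14.8 and 15.8 in cCLP 1 to 4, against 10.8, 14.3, 14.0 and 12.3 in ex vivo CLP 1 to 4. Slc2a3 had a log2 fold change of 0.24 ± 0.12 SE (interval -0.04 to 0.52, adjusted p = 0.148 by limma; with all 8 libraries 0.16, adjusted p = 0.503).

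The hexokinases, which trap glucose as glucose 6-phosphate, fell in cCLP over the 6 libraries for both isozymes that could be tested, Hk1 and Hk3, which passed the filter through ex vivo CLP alone, so that a fall was favoured. Hk3 (chromosome 13, 55005985 to 55021385 on GRCm38), an isozyme known from myeloid cells, was listed at 46.5, 0, 0 and 0 in cCLP 1 to 4, against 21.7, 0, 45.8 and 52.3 in ex vivo CLP 1 to 4. It was at 0 in cCLP 2 to 4 and in ex vivo CLP 2, and well above 0 in the other 4 libraries, so no fold can be given. The fall over the 6 libraries had an adjusted p = 8.53e-06 by limma, and over all 8 libraries adjusted p was 0.488. The summed neutrophil and monocyte markers were also lowest in cCLP 2 to 4 and ex vivo CLP 2, at 166 in ex vivo CLP 2 and 1699 in cCLP 1. This split was not particular to that list. The sums of the dendritic, lymphoid progenitor, cell cycle, T lineage and erythroid lists were lowest in the same libraries. Those of the B lineage, macrophage, megakaryocyte and OP9 stroma lists were not. The part of any of these lists in the fall of Hk3 was not tested. Hk1 (chromosome 10, 62268855 to 62379908 on GRCm38), the isozyme most tissues express, stood at 20.9, 5.26, 4.95 and 3.32 in cCLP 1 to 4, against 15.7, 3.29, 10.2 and 19.6 in ex vivo CLP 1 to 4. The groups of 3 did not overlap, and again cCLP 1 had a high value and ex vivo CLP 2 a low one. Hk1 averaged 4.51 ± 1.04 in cCLP and 15.1 ± 4.73 in ex vivo CLP (SD, n = 3 each). Hk1 had a log2 fold change of -1.53 ± 0.25 SE (adjusted p = 0.00206 by limma; with all 8 libraries -0.56, adjusted p = 0.629). Hk2, the inducible isozyme, did not reach the filter and stood at 15.2, 6.31, 6.92 and 5.81 in cCLP 1 to 4, against 7.23, 3.29, 7.63 and 12.3 in ex vivo CLP 1 to 4, so that its groups of 4 overlapped and the groups of 3 did not.

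Phosphofructokinase sets the committed step of glycolysis, and of its 3 subunit genes Pfkm rose and Pfkl was not called. Pfkm (chromosome 15, 98092589 to 98132451 on GRCm38), the muscle-type subunit, had 21.8, 28.4, 29.7 and 24.9 in cCLP 1 to 4, against 19.3, 19.7, 14.0 and 19.6 in ex vivo CLP 1 to 4. Each of the 4 cCLP libraries lay above each of the 4 ex vivo CLP libraries. Pfkm averaged 27.7 ± 2.48 in cCLP and 17.6 ± 3.15 in ex vivo CLP (SD, n = 3 each) without cCLP 1 and ex vivo CLP 2. Pfkm had a log2 fold change of 0.63 ± 0.14 SE (adjusted p = 0.00997 by limma). Pfkl, the liver-type subunit, had 49.4, 35.8, 39.6 and 33.2 in cCLP 1 to 4, against 44.6, 34.0, 40.7 and 38.5 in ex vivo CLP 1 to 4. Pfkl had a log2 fold change over the 6 libraries of -0.19 ± 0.10 SE (adjusted p = 0.193 by limma; with all 8 libraries -0.01, adjusted p = 0.98), and its groups of 4 overlapped. Pfkp, the platelet-type subunit, was below the filter, at 6.65, 0, 0 and 0 in cCLP 1 to 4, against 6.02, 0, 7.63 and 7.26 in ex vivo CLP 1 to 4, so it was listed at 0 in cCLP 2 to 4 and in ex vivo CLP 2 and above 0 in the others. Whether the changes of the 3 subunits differed from each other was not tested.

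Aldolase A splits fructose 1,6-bisphosphate into a pair of triose phosphates. Aldoa (chromosome 7, 126795234 to 126800751 on GRCm38) had 155, 198, 221 and 189 in cCLP 1 to 4, against 112, 164, 151 and 156 in ex vivo CLP 1 to 4. Its 6 libraries separated, with cCLP above, while cCLP 1 lay within the ex vivo values and ex vivo CLP 2 between the groups. Aldoa averaged 203 ± 16.2 in cCLP and 139.8 ± 24.2 in ex vivo CLP (SD, n = 3 each). Aldoa had a log2 fold change of 0.54 ± 0.15 SE (adjusted p = 0.0207 by limma), and the call was lost without cCLP 2 (adjusted p = 0.0547) or cCLP 3 (adjusted p = 0.0765). Aldoc, the brain-type isozyme, was listed at 2.85, 0, 0 and 0 in cCLP 1 to 4, against 2.41, 0, 2.54 and 2.18 in ex vivo CLP 1 to 4, far under the filter. Pfkfb3, which makes the activator fructose 2,6-bisphosphate, also stayed under it, at 4.98 to 7.60 in cCLP and 5.09 to 7.26 in ex vivo CLP. Gpi1 (glucose 6-phosphate isomerase) and Tpi1 (triose phosphate isomerase) were tested and not called, with log2 fold changes of -0.09 ± 0.14 SE and 0.32 ± 0.11 SE, the adjusted p of Tpi1 being 0.052.

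In lower glycolysis, from triose phosphate to pyruvate, Pgk1 was called lower over the 6 libraries, and the other 4 genes tested did not pass the test, which does not show them equal. Phosphoglycerate kinase 1, which makes the first ATP of the pathway, is encoded by Pgk1 (chromosome X, 106187100 to 106203699 on GRCm38), with 178, 118, 136 and 118 in cCLP 1 to 4, against 151, 140.3, 198 and 189 in ex vivo CLP 1 to 4. Cultured libraries 2 to 4 lay below ex vivo CLP 1, 3 and 4, with cCLP 1 among the ex vivo values and ex vivo CLP 2 just above cCLP 3. Pgk1 averaged 124 ± 10.2 in cCLP and 179.5 ± 25.4 in ex vivo CLP (SD, n = 3 each). Pgk1 had a log2 fold change of -0.53 ± 0.13 SE (adjusted p = 0.0153 by limma; with all 8 libraries -0.31, adjusted p = 0.488). The call was lost without cCLP 2 (adjusted p = 0.0572), cCLP 4 (0.0635) or ex vivo CLP 4 (0.0505). Enolase 1, which makes phosphoenolpyruvate, went the other way without passing the test: Eno1 had 60.8, 69.4, 82.1 and 56.4 in cCLP 1 to 4, against 43.4, 50.4, 43.2 and 63.9 in ex vivo CLP 1 to 4. Eno1 had a log2 fold change of 0.47 ± 0.19 SE (adjusted p = 0.0839 by limma), and an adjusted p of 0.0231 without ex vivo CLP 4. Its values overlapped, because ex vivo CLP 4 lay above cCLP 4. Eno2, the neuronal isozyme, was listed at 0 in all 8 libraries. Gapdh (glyceraldehyde 3-phosphate dehydrogenase), Pgam1 (phosphoglycerate mutase) and Pkm (pyruvate kinase) had log2 fold changes of -0.37 ± 0.16 SE, -0.28 ± 0.20 SE and -0.14 ± 0.15 SE, none called, with adjusted p of 0.0971, 0.296 and 0.472. The 95% interval left out 0 for Gapdh (-0.73 to -0.00) and for Eno1 (0.03 to 0.91). Near-identical copies elsewhere in the genome (at least 97% identity over at least 150 bases) held 1.355% of the joint sum for Gapdh (47 copies), 3.945% for Pgam1, 1.423% for Eno1 and 0.478% for Pgk1. These shares give what was assigned to the copies. They do not measure reads lost or wrongly assigned between a gene and its copies, which is not known here.

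Of the lactate dehydrogenase subunits, Ldhb fell over the 6 libraries and Ldha was not called. Ldhb passed the filter through ex vivo CLP alone, which favoured a fall. Ldha and Ldhb form mixed tetramers, of which those rich in the A subunit are known for turning pyruvate into lactate and those rich in the B subunit for the reverse. Ldhb (chromosome 6, 142490249 to 142507957 on GRCm38) was listed at 20.9, 0, 0.989 and 0 in cCLP 1 to 4, against 21.7, 0, 12.7 and 22.5 in ex vivo CLP 1 to 4. It was at or next to 0 in cCLP 2 to 4 and in ex vivo CLP 2, and at 12.7 or more in the other 4 libraries. The log2 fold change over the 6 libraries was -3.95 ± 0.34 SE (adjusted p = 6.75e-05 by limma; with all 8 libraries -1.85, adjusted p = 0.519); its size depends on the added constant, at -4.72 with 0.5 added and -2.15 with 5 added. Ldha (chromosome 7, 46841475 to 46855627 on GRCm38), by contrast, had 225, 216, 228 and 199.9 in cCLP 1 to 4, against 193, 208, 205 and 217 in ex vivo CLP 1 to 4. Its groups overlapped. Ldha averaged 215 ± 14.3 in cCLP and 205 ± 12.1 in ex vivo CLP (SD, n = 3 each). Ldha had a log2 fold change of 0.07 ± 0.11 SE (interval -0.18 to 0.32, adjusted p = 0.647 by limma; with all 8 libraries 0.08, adjusted p = 0.611). The difference between both fold changes was not tested.

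**Figure D3:**
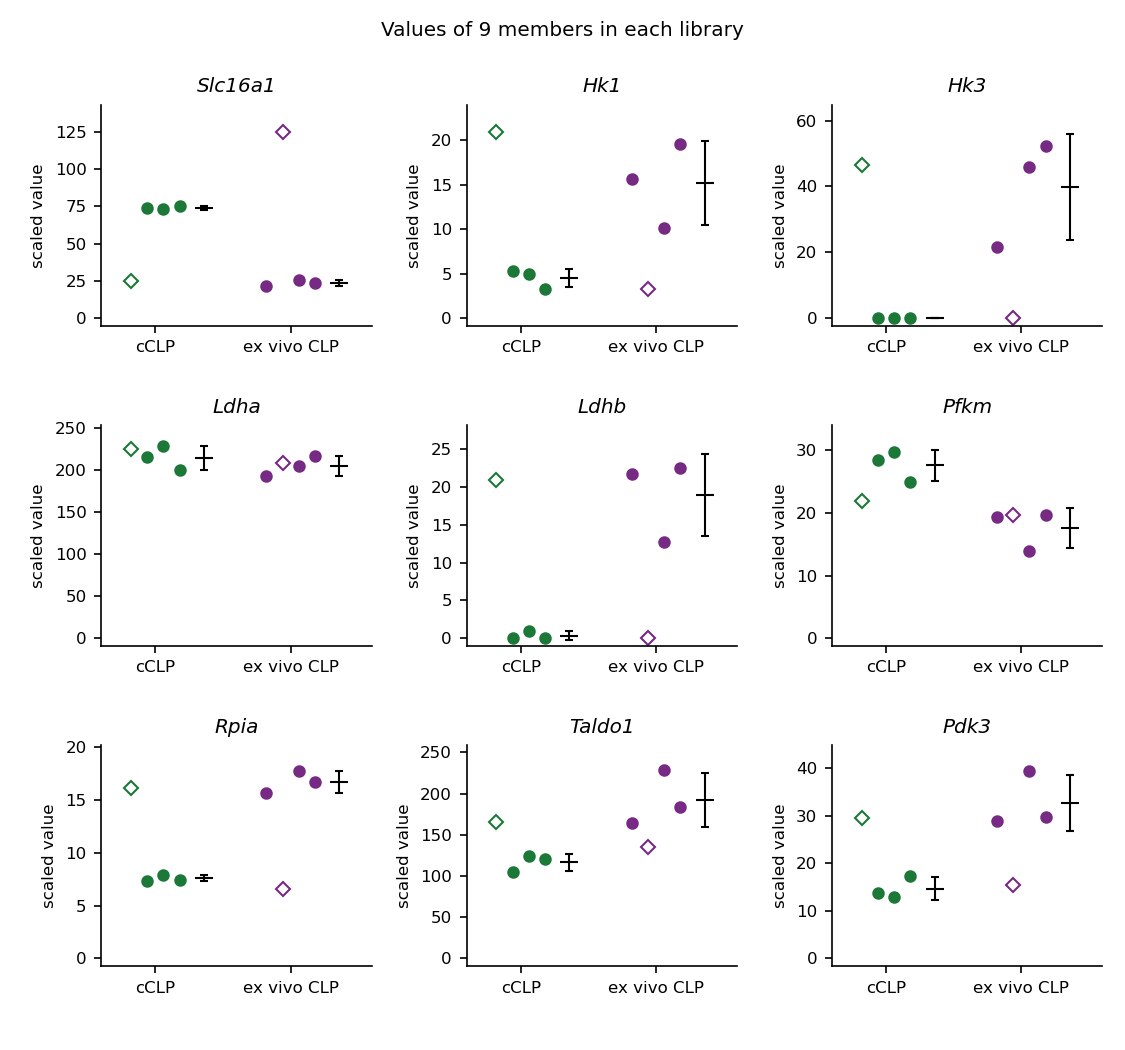
Scaled values (linear axes that include 0) of selected genes in each library, cCLP left and ex vivo CLP right, with the mean and SD of the 3 libraries kept in each group and open symbols for the libraries labelled cCLP 1 and ex vivo CLP 2. For Hk3 and Ldhb the open symbol of each group lies at the level of the other group, for Slc16a1 that of ex vivo CLP 2 lies above it, while the Ldha values of both groups overlap between 193 and 228.

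In the pentose phosphate pathway 1 gene rose and 2 fell among 7 tested over the 6 libraries (42.9%, where 42.6% of all genes tested were called). Pgd (chromosome 4, 149149991 to 149166771 on GRCm38), phosphogluconate dehydrogenase of the oxidative branch, which makes NADPH, had 15.2, 21.0, 18.8 and 15.8 in cCLP 1 to 4, against 12.0, 14.3, 8.90 and 15.2 in ex vivo CLP 1 to 4. Among the 6 libraries the groups were separate by a small gap between cCLP 4 and ex vivo CLP 4. Pgd averaged 18.5 ± 2.65 in cCLP and 12.1 ± 3.17 in ex vivo CLP (SD, n = 3 each). Pgd had a log2 fold change of 0.60 ± 0.19 SE (adjusted p = 0.0361 by limma). The call was lost without cCLP 2 (adjusted p = 0.121), cCLP 3 (0.095), ex vivo CLP 1 (0.0635) or ex vivo CLP 3 (0.0762). G6pdx, glucose 6-phosphate dehydrogenase, which opens the same branch, had the opposite sign. G6pdx had a log2 fold change of -0.49 ± 0.18 SE, and was not called (adjusted p = 0.063 by limma; with all 8 libraries -0.23, adjusted p = 0.57).

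The genes that fell in that pathway belong to its non-oxidative branch. Rpia passed the filter through ex vivo CLP alone. Rpia (chromosome 6, 70765720 to 70792232 on GRCm38), ribose 5-phosphate isomerase, which yields the sugar for nucleotides, had 16.1, 7.36, 7.91 and 7.47 in cCLP 1 to 4, against 15.7, 6.58, 17.8 and 16.7 in ex vivo CLP 1 to 4. The values of cCLP 2 to 4 and of ex vivo CLP 2 lay close together, and no value of the other 4 libraries came near them. Rpia averaged 7.58 ± 0.292 in cCLP and 16.7 ± 1.07 in ex vivo CLP (SD, n = 3 each). Rpia had a log2 fold change of -1.05 ± 0.10 SE (adjusted p = 0.000156 by limma; with all 8 libraries -0.49, adjusted p = 0.495). Taldo1 (chromosome 7, 141392199 to 141402968 on GRCm38), transaldolase, which links pentoses back to glycolysis, had 165, 105, 125 and 120.3 in cCLP 1 to 4, against 164, 135, 229 and 184 in ex vivo CLP 1 to 4. All of cCLP 2 to 4 lay below all of ex vivo CLP 1 to 4, and cCLP 1 did not. Taldo1 averaged 117 ± 10.2 in cCLP and 192 ± 33.4 in ex vivo CLP (SD, n = 3 each). Taldo1 had a log2 fold change of -0.70 ± 0.14 SE (adjusted p = 0.00611 by limma). Tkt (transketolase), Rpe (ribulose phosphate epimerase) and Pgls (6-phosphogluconolactonase) were not called, at log2 fold changes of -0.17 ± 0.16 SE, 0.10 ± 0.10 SE and 0.04 ± 0.14 SE. The cell cycle genes, whose sums were also lower in cCLP 2 to 4, moved in the same direction as Rpia and Taldo1, and their part in these values was not tested.

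At the entry to mitochondrial oxidation, Pdk3 fell while the genes of the pyruvate dehydrogenase complex were not called. Pyruvate dehydrogenase kinases phosphorylate the complex and shut it off. Pdk3 (chromosome X, 93764607 to 93832201 on GRCm38) had 29.4, 13.7, 12.9 and 17.4 in cCLP 1 to 4, against 28.9, 15.3, 39.4 and 29.8 in ex vivo CLP 1 to 4. The 6 libraries separated widely, and cCLP 1 and ex vivo CLP 2 each lay with the other group. Pdk3 averaged 14.7 ± 2.43 in cCLP and 32.7 ± 5.84 in ex vivo CLP (SD, n = 3 each). Pdk3 had a log2 fold change of -1.10 ± 0.16 SE (adjusted p = 0.00106 by limma; with all 8 libraries -0.60, adjusted p = 0.488). Pdk1, the kinase known as a HIF1 target, had 30.4, 28.4, 30.7 and 29.9 in cCLP 1 to 4, against 33.7, 34.0, 31.8 and 27.6 in ex vivo CLP 1 to 4, all 8 within 27.6 to 34.0. Its log2 fold change over the 6 libraries was -0.06 ± 0.10 SE (interval -0.30 to 0.18, adjusted p = 0.668 by limma; with all 8 libraries -0.08, adjusted p = 0.612) and 0.00 without ex vivo CLP 1. Pdk2 was below the filter, at 1.66 to 3.16 in cCLP and 1.27 to 3.63 in ex vivo CLP. The subunit genes Pdha1, Pdhb and Dlat had log2 fold changes of 0.16 ± 0.10 SE, 0.23 ± 0.10 SE and 0.11 ± 0.13 SE.

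Of the 13 TCA cycle genes, all tested, 1 rose and 1 fell over the 6 libraries (15.4%, where 42.6% of all genes tested were called). Suclg1 (chromosome 6, 73248382 to 73276911 on GRCm38), the alpha subunit of succinyl-CoA synthetase, had 32.3, 40.0, 42.5 and 37.3 in cCLP 1 to 4, against 30.1, 38.4, 28.0 and 30.5 in ex vivo CLP 1 to 4. The cCLP 2 to 4 values lay above those of ex vivo CLP 1, 3 and 4, and ex vivo CLP 2 lay among the cCLP values. Suclg1 averaged 39.9 ± 2.60 in cCLP and 29.5 ± 1.35 in ex vivo CLP (SD, n = 3 each). Suclg1 had a log2 fold change of 0.42 ± 0.09 SE (adjusted p = 0.00852 by limma; with all 8 libraries 0.26, adjusted p = 0.488). Ogdh (chromosome 11, 6291633 to 6356642 on GRCm38), the first component of the oxoglutarate dehydrogenase complex, which feeds that same step, had 51.3, 26.3, 21.8 and 20.7 in cCLP 1 to 4, against 38.6, 17.5, 25.4 and 47.9 in ex vivo CLP 1 to 4. Its groups overlapped even among the 6 libraries, since ex vivo CLP 3 lay below cCLP 2. Ogdh averaged 22.9 ± 2.96 in cCLP and 37.3 ± 11.3 in ex vivo CLP (SD, n = 3 each). Ogdh had a log2 fold change of -0.64 ± 0.22 SE (adjusted p = 0.0449 by limma; with all 8 libraries -0.11, adjusted p = 0.881). The call of Ogdh was kept without ex vivo CLP 3, and was lost without cCLP 2 (adjusted p = 0.061), cCLP 3 (0.118), cCLP 4 (0.129), ex vivo CLP 1 (0.101) or ex vivo CLP 4 (0.12).

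The isocitrate dehydrogenases, which turn isocitrate into oxoglutarate, were not called in either direction. Idh3g, the gamma subunit of the NAD-dependent mitochondrial enzyme, had 114, 86.3, 98.9 and 101 in cCLP 1 to 4, against 105, 105, 148 and 124 in ex vivo CLP 1 to 4. Idh3g had a log2 fold change of -0.38 ± 0.14 SE (adjusted p = 0.0627 by limma; with all 8 libraries -0.26, adjusted p = 0.488), and was called without ex vivo CLP 1 (adjusted p = 0.0159). Idh3a, its catalytic alpha subunit, had 60.8, 41.0, 38.6 and 39.8 in cCLP 1 to 4, against 48.2, 36.2, 43.2 and 53.0 in ex vivo CLP 1 to 4. Idh3a had a log2 fold change of -0.26 ± 0.10 SE (adjusted p = 0.0706 by limma; with all 8 libraries -0.01, adjusted p = 0.97), and was called without ex vivo CLP 3 (adjusted p = 0.0293). Idh3b, the beta subunit, had 45.6, 48.4, 54.4 and 50.6 in cCLP 1 to 4, against 45.8, 51.5, 54.7 and 49.4 in ex vivo CLP 1 to 4. Idh3b had a log2 fold change of 0.04 ± 0.10 SE (adjusted p = 0.802 by limma; with all 8 libraries -0.02, adjusted p = 0.929). The alpha and gamma subunits thus lay to the lower side without passing the test, and the sign of the beta subunit turned when ex vivo CLP 1 (-0.02) or cCLP 3 (-0.01) was left out. Idh1, the cytosolic NADP-dependent enzyme, had 24.7, 30.5, 35.6 and 33.2 in cCLP 1 to 4, against 20.5, 35.1, 30.5 and 27.6 in ex vivo CLP 1 to 4. Idh1 had a log2 fold change of 0.34 ± 0.15 SE (adjusted p = 0.105 by limma; with all 8 libraries 0.13, adjusted p = 0.677), and was called without ex vivo CLP 3 (adjusted p = 0.044). Idh2, its mitochondrial counterpart, had 203, 182, 208 and 207 in cCLP 1 to 4, against 193, 223, 232 and 199 in ex vivo CLP 1 to 4. Idh2 had a log2 fold change of -0.06 ± 0.12 SE (adjusted p = 0.705 by limma; with all 8 libraries -0.08, adjusted p = 0.654), with a sign that turned without ex vivo CLP 3 (0.02) or cCLP 2 (0.00). The other 6 genes of the cycle were not called either. Cs (citrate synthase) and Fh1 (fumarase) had log2 fold changes of 0.13 ± 0.10 SE and 0.18 ± 0.12 SE, and the malate dehydrogenases Mdh1 (cytosolic) and Mdh2 (mitochondrial) of 0.24 ± 0.12 SE and 0.30 ± 0.27 SE. Dlst, the second component of the oxoglutarate dehydrogenase complex, and Sucla2, the ATP-forming beta subunit of succinyl-CoA synthetase, had 0.10 ± 0.13 SE and -0.06 ± 0.11 SE.

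The log2 fold changes of the 29 tested genes without a call ran from -0.49 to 0.47 over the 6 libraries. Of these 17 were positive and 12 negative, with adjusted p between 0.052 and 0.843 by limma. All 29 intervals stayed within a 2-fold change in either direction, with bounds from -0.91 to 0.93. Each interval is for a single gene and holds only given the choice of libraries. The 7 genes not tested have no interval. A p that misses the threshold does not show that these genes are equal in both kinds of cell.

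**Figure D4:**
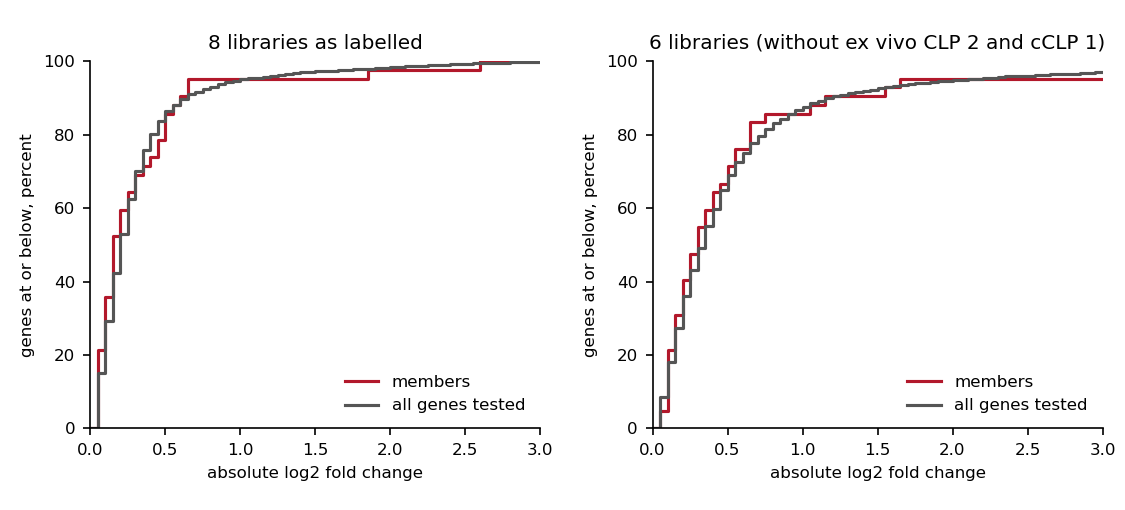
Share of genes (percent) at or below each absolute log2 fold change, for the 42 tested genes and for all genes tested, with all 8 libraries as labelled and with 6 libraries. The curve of the 42 stays near that of all genes in both comparisons, with medians of 0.13 against 0.19 and of 0.27 against 0.31.

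Further genes of the same pathways, 58 that are no part of the 49, were followed by a fixed list, of which 24 were tested in the 6 libraries and 7 rose and 3 fell (41.7%, where the background was 42.6%). All 8 libraries gave 0 calls. Slc16a7 (MCT2), a second monocarboxylate transporter with high affinity, had the largest rise, at 3.80, 44.2, 50.4 and 42.3 in cCLP 1 to 4, against 4.82, 27.4, 3.82 and 4.36 in ex vivo CLP 1 to 4. As with Slc16a1, ex vivo CLP 2 lay with the cultured cells and cCLP 1 with the fresh ones, and Slc16a7 passed the filter through cCLP alone. Slc16a7 averaged 45.6 ± 4.26 in cCLP and 4.33 ± 0.502 in ex vivo CLP (SD, n = 3 each). Slc16a7 had a log2 fold change of 3.13 ± 0.12 SE (adjusted p = 1.15e-06 by limma; with all 8 libraries 1.71, adjusted p = 0.488). Pck2, the mitochondrial phosphoenolpyruvate carboxykinase, averaged 102 ± 14.1 in cCLP and 48.6 ± 3.24 in ex vivo CLP (SD, n = 3 each). Pck2 had a log2 fold change of 1.05 ± 0.12 SE (adjusted p = 0.000384 by limma; with all 8 libraries 0.39, adjusted p = 0.602), with 48.4 in cCLP 1 and 146 in ex vivo CLP 2. Aco1, the cytosolic aconitase, averaged 25.5 ± 1.19 in cCLP and 12.1 ± 0.998 in ex vivo CLP (SD, n = 3 each). Aco1 had a log2 fold change of 1.02 ± 0.10 SE (adjusted p = 0.000142 by limma; with all 8 libraries 0.57, adjusted p = 0.488), with 14.2 in cCLP 1 and 25.2 in ex vivo CLP 2. Among those that fell, Mpc1, a subunit of the mitochondrial pyruvate carrier, averaged 12.6 ± 2.16 in cCLP and 23.9 ± 5.91 in ex vivo CLP (SD, n = 3 each). Mpc1 had a log2 fold change of -0.86 ± 0.19 SE (adjusted p = 0.00803 by limma; with all 8 libraries -0.53, adjusted p = 0.488), with 19.9 in cCLP 1 and 14.3 in ex vivo CLP 2. Adpgk, an ADP-dependent glucokinase, averaged 20.0 ± 2.04 in cCLP and 33.2 ± 4.65 in ex vivo CLP (SD, n = 3 each). Adpgk had a log2 fold change of -0.70 ± 0.13 SE (adjusted p = 0.00359 by limma; with all 8 libraries -0.42, adjusted p = 0.488), with 29.4 in cCLP 1 and 21.9 in ex vivo CLP 2. Got1, the cytosolic aspartate aminotransferase of the malate-aspartate shuttle, averaged 12.6 ± 0.208 in cCLP and 18.0 ± 0.179 in ex vivo CLP (SD, n = 3 each). Got1 had a log2 fold change of -0.48 ± 0.09 SE (adjusted p = 0.00349 by limma; with all 8 libraries -0.17, adjusted p = 0.634), with 20.9 in cCLP 1 and 12.1 in ex vivo CLP 2.

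Because several of the 49 genes are known HIF1 targets, hypoxia-responsive genes outside the pathway were set beside them. Of 20 on the list 13 were tested in the 6 libraries, 4 rose and 3 fell (53.8%, where 42.6% of all genes tested were called), and 0 were called in all 8. Kdm3a (a histone demethylase), Bnip3 (a mitophagy receptor) and P4ha1 (a collagen prolyl hydroxylase) rose, with log2 fold changes of 1.02 ± 0.11 SE, 1.02 ± 0.14 SE and 0.44 ± 0.15 SE and adjusted p of 0.000249, 0.000779 and 0.0409 by limma. The call of P4ha1 was lost without cCLP 2 (adjusted p = 0.0934), cCLP 3 (0.136), ex vivo CLP 1 (0.0892) or ex vivo CLP 4 (0.108). Vegfa (a growth factor for blood vessels), Egln3 (a prolyl hydroxylase that marks HIF for destruction) and Higd1a (a mitochondrial protein) fell, with log2 fold changes of -3.14 ± 0.27 SE, -2.20 ± 0.26 SE and -0.71 ± 0.12 SE and adjusted p of 7.39e-05, 0.000385 and 0.00291. Vegfa stood at 21.8, 2.10, 3.96 and 2.49 in cCLP 1 to 4, against 21.7, 2.19, 35.6 and 43.6 in ex vivo CLP 1 to 4. It passed the filter through ex vivo CLP alone, as Egln3 did. Over all 8 libraries the log2 fold changes were 0.55 ± 0.30 SE, 0.40 ± 0.39 SE and 0.28 ± 0.16 SE for Kdm3a, Bnip3 and P4ha1, and -1.65 ± 0.95 SE, -1.03 ± 0.77 SE and -0.47 ± 0.18 SE for Vegfa, Egln3 and Higd1a.

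Of 26 regulators of these pathways 15 were tested in the 6 libraries, 2 rose and 2 fell (26.7%, where 42.6% of all genes tested were called), and 0 were called in all 8. Txnip, which restrains glucose uptake and is known to follow glucose levels, fell, at 159.6, 62.1, 78.1 and 75.5 in cCLP 1 to 4, against 133, 66.9, 163 and 158 in ex vivo CLP 1 to 4. Its values in cCLP 2 to 4 and ex vivo CLP 2 lay well below the other 4. Txnip averaged 71.9 ± 8.62 in cCLP and 151 ± 16.2 in ex vivo CLP (SD, n = 3 each). Txnip had a log2 fold change of -1.06 ± 0.13 SE (adjusted p = 0.000477 by limma; with all 8 libraries -0.49, adjusted p = 0.504). Mycl, a MYC family factor, fell, with a log2 fold change of -1.20 ± 0.14 SE (adjusted p = 0.000376 by limma, not tested over all 8 libraries), and passed the filter through ex vivo CLP alone. Prkaa1, a catalytic subunit of AMP-activated kinase, rose, with a log2 fold change of 0.43 ± 0.10 SE (adjusted p = 0.00978 by limma; with all 8 libraries 0.21, adjusted p = 0.506), with an adjusted p of 0.0558 without cCLP 4. Hif1a, the oxygen-regulated subunit of HIF1, rose, with a log2 fold change of 0.30 ± 0.10 SE (adjusted p = 0.0467 by limma; with all 8 libraries 0.12, adjusted p = 0.644), a call that was lost without cCLP 2 (adjusted p = 0.0828), cCLP 3 (0.132), cCLP 4 (0.159), ex vivo CLP 1 (0.0853) or ex vivo CLP 4 (0.0892).

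**Figure D5:**
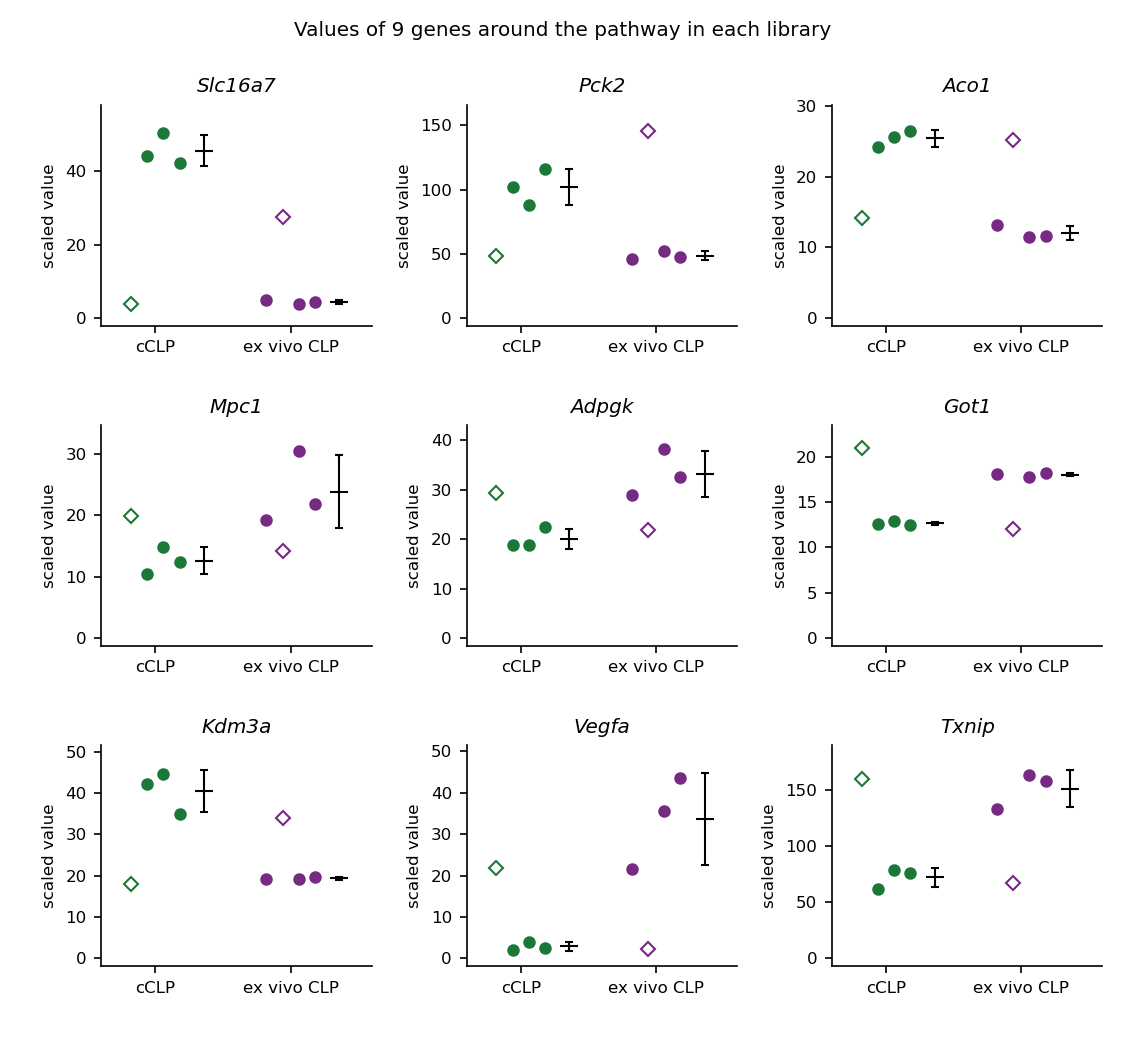
Scaled values (linear axes that include 0) of genes outside the 49 in each library, cCLP left and ex vivo CLP right, with the mean and SD of the 3 libraries kept in each group and open symbols for the libraries labelled cCLP 1 and ex vivo CLP 2. Slc16a7 stands at 42.3 to 50.4 in cCLP 2 to 4, against 3.82 to 4.82 in ex vivo CLP 1, 3 and 4, and the Txnip values of cCLP 2 to 4 lie below those of ex vivo CLP 1, 3 and 4.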

How the data were processed

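RNA libraries of 4 cCLP and 4 ex vivo CLP samples were analysed. Per the labels' protocols, RNA of sorted cells was freed of ribosomal RNA with Ribo-Zero, made into stranded TruSeq libraries and sequenced in pairs. Per the submitters' processing notes, TopHat2, Bowtie2 and HTSeq 1.0.6 were used with GRCm38 (mm10). The strand setting, annotation and any later scaling are not given in the sources used here. The deposited value of a gene is a score, a whole number on a scale that no label names, and was not treated as a count because it varied less than counts can.

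From these scores, library factors were computed as trimmed means of log ratios (30% of ratios and 5% of levels trimmed). Log2(scaled value + 1) was fitted on group in R 4.3.3 by limma 3.58.1 (trend of variance on mean, robust moderation). Tests were two-sided with Benjamini-Hochberg adjustment over all genes tested, called at adjusted p below 0.05, and intervals are 95% confidence intervals. A gene was tested where a scaled value of 10 was reached by 4 of the 8 libraries, or by 3 of the 6. In runs that left out 1 library, the number needed was the size of the smaller group. The genes tested, and with them the adjustment, therefore changed along with the library left out. Gene names and positions came from GENCODE vM21, which matched 37693 of 39179 IDs. Values without a match held 0.31% of the sums. Tables used Python 3.11.15, pandas 2.3.3 and NumPy 2.4.6, and figures matplotlib 3.10.9.

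The comparison of 6 libraries left out the libraries labelled cCLP 1 and ex vivo CLP 2. The 49 genes, the other lists and that choice were made with earlier results of these data known. Values are printed for every called gene of the 49 and for every set of isozymes, for the 5 genes with the smallest p in all 8 libraries, and for at most 3 called genes in each direction of each other list. Other scalings, filters, added constants, moderation, a replicate block and leaving out each library were tried as alternatives.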

Additional observations from a re-analysis of the deposited data

Results flagged for a closer look

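In groups of 4 libraries, the gap of the highest or lowest library to its nearest neighbour was set against the range of the group, for 96 groups of scaled values. The share passed Dixon's 95% critical value in 15 groups, where chance flags about 1 group in 20.

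Of the 15, 10 were the library labelled cCLP 1. It stood low for Slc16a1 (gap share 0.955) and high for Slc16a3 (1.0), Hk1 (0.89), Hk2 (0.881), Hk3 (1.0), Pfkp (1.0), Aldoc (1.0), Ldhb (0.953), Rpia (0.937) and Idh3a (0.89). For Slc16a3, Hk3, Pfkp and Aldoc the other 3 cCLP libraries were listed at 0.

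The library labelled ex vivo CLP 2 stood apart 3 times, high for Slc16a1 (0.964) and low for Slc16a3 (0.83) and Aldoc (0.856). Both libraries are those that correlated best with the other group, and the reason was not tested. The remaining 2 were ex vivo CLP 3, low for Pfkm (0.921), and cCLP 2, low for Tkt (0.836).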

How the results depend on the processing

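The calls rest on the choice of libraries: all 8 as labelled gave 0 genes under every scaling, filter, added constant, moderation, the replicate block and each single library left out, and leaving out cCLP 1 and ex vivo CLP 2 together gave 1344 genes higher and 1459 lower, among them 5 and 8 of the 49. Over the 6 libraries, no filter on low values gave 2237 higher and 2751 lower. Of the 49, upper quartile factors gave 9 higher and the replicate block 2 higher. Leaving out 1 library gave 928 to 1465 genes higher and 1178 to 1818 lower, and 3 to 6 of the 49 higher and 6 to 11 lower. The calls of Slc16a1, Hk1, Hk3, Pfkm, Rpia, Taldo1 and Pdk3 held under each alternative run. Other scalings moved the median of all genes by at most 0.06 (log2). Ogdh lost its call with upper quartile factors (adjusted p = 0.0685 by limma), with scaling by sums (0.112) and without the filter (0.0526), and Pgd with scaling by sums (0.0654). Eno1 (0.0413) and Idh1 (0.0405) were among the genes that gained a call with upper quartile factors. Further genes gained or lost a call under that scaling and are not named here.

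Replicate numbers were also fitted as a replicate block, although no label says that they pair the libraries. Same-numbered libraries deviated together from the mean of their labelled group by 0.595, 0.841, -0.575 and -0.858 (correlation over 6493 genes). In the same check, 2 libraries correlated best with their own number. The group means included the libraries labelled cCLP 1 and ex vivo CLP 2, which lay with the other group. These correlations therefore cannot show whether the numbers pair the libraries. Among the 6 libraries, replicate numbers 1 and 2 each occurred in 1 group only. The fold changes with the block therefore came from cCLP 3 and 4 and ex vivo CLP 3 and 4 alone. So changes under the block cannot be told apart from leaving out the other 2 libraries. With the block over the 6 libraries, adjusted p by limma was 0.0541 for Aldoa, 0.0778 for Pgd, 0.114 for Ldhb, 0.0532 for Suclg1 and 0.0425 for Idh3g. The block gave 1124 genes higher and 1283 lower, and turned the log2 fold change of Pdk1 to 0.030 and of Slc2a1 to -0.039. Without 1 library, the fold change ran from -0.057 to 0.191 for Slc2a1, from -0.140 to 0.00048 for Pdk1, from -0.113 to 0.019 for Idh2 and from -0.024 to 0.101 for Idh3b; the cause was not tested. Depth is unknown, so what low values can show is not known either.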
